A study of Mus musculus with 68 samples.

Results

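The genes described here are 30 mouse genes of cholesterol synthesis and sterol homeostasis, measured by RNA sequencing in mesenchymal stromal cells (MSCs). They were chosen by name for their function, with earlier results of these data known. All 30 were found among the 27179 gene rows of the deposited count table. By role, 8 carry acetyl-CoA to farnesyl and geranylgeranyl pyrophosphate, 11 carry squalene to cholesterol, 5 control the sterol-regulated transcription factors, and 6 move sterol or control its uptake and efflux. The first 2 roles are together called the 19 synthesis enzymes. All 30 passed the filter on low counts and were among the 14897 genes tested.

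The cells were primary cultures from the long bones of mice, and all 4 groups carried Prrx-1-Cre, a Cre recombinase driven by a limb mesenchyme promoter. The heterozygous mice (Het) were Ezh2fl/+:Prrx-1-Cre, with 1 floxed allele of Ezh2, the histone methyltransferase of Polycomb repressive complex 2, and the controls (WT) were Ezh2+/+:Prrx-1-Cre. Mice were 3 or 12 months old, which gave the groups WT 3M (4 biological samples: S3, S4, S5, S12), Het 3M (3 samples: S8, S10, S14), WT 12M (4 samples: S2, S6, S7, S13) and Het 12M (6 samples: S1, S9, S11, S15, S16, S17). The design text counts 3 biological samples in a group, which differs from the labels, and the labels were followed. Each biological sample was sequenced as 4 technical replicates, which were summed. The series design names the genotype comparison at each age and the age comparison in each genotype. Nothing in the labels says whether samples of a group came from separate mice, so p-values measure the spread between these cultures. Heterozygosity was driven only in cells that had expressed the Cre, and other cells of a culture keep both alleles of Ezh2.

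Cholesterol is built in the cytosol and endoplasmic reticulum from acetyl-CoA through mevalonate, isoprenoid pyrophosphates, squalene and lanosterol. When sterol in the endoplasmic reticulum is low, SCAP carries the transcription factors SREBP1 and SREBP2 (genes Srebf1 and Srebf2) to the Golgi, where they are cleaved and released to switch on the synthesis genes. When sterol is high, INSIG proteins hold SCAP back, and oxysterols activate the LXR receptors, which switch on the efflux transporters ABCA1 and ABCG1 and the ubiquitin ligase MYLIP. Many promoters of synthesis genes hold a sterol response element beside sites for the factors NF-Y, which reads a CCAAT box, and SP1, which reads a GC box.

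RefSeq promoter sequences of build GRCm38.p6 were found for 24 of the 30 members, 16 of them synthesis enzymes, and the 250 bases before the annotated start were searched on both strands. The letters CCAAT were present for 21 of the 24 members and for 15 of the 16 enzymes (93.8%), and for 40.1% of the tested genes in the same table. The GC box letters GGGCGG were present for 22 of the 24 members and 62.4% of tested genes. The sterol response core TCACNCCA was present for 3 members, Hmgcs1, Msmo1 and Srebf2, and 4.01% of tested genes, and the E-box CACGTG for 6 members (25.0%) and 9.7% of tested genes. These matches describe letters in a window and are not measured binding sites. The promoters of 4 members are shown as examples of these letters, whose relation to the expression values was not tested: Hmgcs1 and Msmo1 carry the sterol core beside CCAAT boxes, Nsdhl is 1 of the enzymes that separated the WT ages, and Insig1 is 1 of the members that separated the Het ages. Each sequence is the 250 bases before the start, 5′ to 3′ on the gene's own strand, with capitals marking the sterol core, CCAAT or its reverse complement ATTGG, and the E-box.
Hmgcs1, chr13:119690101-119690350, plus strand: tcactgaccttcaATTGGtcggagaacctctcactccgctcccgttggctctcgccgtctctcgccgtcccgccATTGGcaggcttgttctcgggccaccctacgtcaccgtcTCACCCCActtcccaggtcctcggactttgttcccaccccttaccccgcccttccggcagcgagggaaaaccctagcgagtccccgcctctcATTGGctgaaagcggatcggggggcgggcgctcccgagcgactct
Msmo1, chr8:64733579-64733828, minus strand: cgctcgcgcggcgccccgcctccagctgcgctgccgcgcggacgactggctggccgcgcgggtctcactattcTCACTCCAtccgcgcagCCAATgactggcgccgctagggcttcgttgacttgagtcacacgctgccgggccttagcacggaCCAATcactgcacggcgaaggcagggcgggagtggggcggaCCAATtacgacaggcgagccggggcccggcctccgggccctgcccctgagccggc
Nsdhl, chrX:72918271-72918520, plus strand: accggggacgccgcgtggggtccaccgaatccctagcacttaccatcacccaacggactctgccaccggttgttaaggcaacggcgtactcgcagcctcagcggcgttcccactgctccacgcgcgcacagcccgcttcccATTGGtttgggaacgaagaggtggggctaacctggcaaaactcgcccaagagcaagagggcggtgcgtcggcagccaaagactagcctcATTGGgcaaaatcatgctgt
Insig1, chr5:28071162-28071411, plus strand: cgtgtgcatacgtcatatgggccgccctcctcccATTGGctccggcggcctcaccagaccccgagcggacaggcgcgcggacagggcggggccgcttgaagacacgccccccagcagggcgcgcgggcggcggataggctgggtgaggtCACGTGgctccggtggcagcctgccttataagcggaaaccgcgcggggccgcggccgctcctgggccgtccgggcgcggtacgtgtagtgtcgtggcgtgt
In Hmgcs1 the sterol core began 137 bases before the start, with CCAAT boxes at 237, 176 and 45 bases before it. In Msmo1 the core began 177 bases before the start and the CCAAT boxes at 160, 96 and 55. Nsdhl held CCAAT boxes at 109 and 20 bases before the start and no sterol core in this window. Insig1 held 1 CCAAT box at 216 bases and an E-box at 101 bases before the start.

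Depth was 13687876 to 28597221 counts per biological sample. Levels below are CPM, counts scaled to a common library total, with TMM factors, a trimmed-mean correction for library composition, and with the counts in tested genes as the total. Ezh2 itself was at 12.6 ± 2.32 CPM in WT 3M (SD, n = 4), 11.1 ± 2.29 in Het 3M (SD, n = 3), 19.8 ± 12.3 in WT 12M (SD, n = 4) and 17.7 ± 5.52 in Het 12M (SD, n = 6), so the count of the whole gene did not separate the genotypes, and it cannot resolve the floxed exons. By label, S3 and S4 of WT 3M, S14 of Het 3M and S6 and S7 of WT 12M were female. Het 12M was female except for S17, and the remaining libraries were male. Comparisons with Het 12M are thus partly confounded with sex. The sex given in the labels was contradicted by Xist and Y-linked transcripts for each of the 4 WT 12M libraries and for none of the remaining 13. Whether other labels of these libraries are affected was not tested. The mesenchymal stromal markers, 12 of 12 detected in each library, summed to 9550 to 40500 CPM. Het 12M S9 had the highest level of 12 of 12 macrophage and myeloid markers, which summed to 42000 CPM there and to 36.4 to 2940 in the other libraries. Het 12M S15 had the lowest mesenchymal sum, 9550 CPM, and an interferon-stimulated sum of 4040 CPM against 118 to 892 elsewhere. It also had a skew by the exon length of genes, which is described with the library's values below. WT 12M S6 had a Schwann and neural crest sum of 1180 CPM against 18.2 to 111 elsewhere. In bulk RNA, fewer cells of a type and less RNA per cell cannot be told apart.

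The pathway was expressed in every culture. Compared per kilobase of exon, the mean of the 4 group means was highest for Npc2, the soluble cholesterol-binding protein of the lysosome, at 106 CPM per kilobase. Among the enzymes Hmgcs1, which makes HMG-CoA, stood at 21.6 and Cyp51, which demethylates lanosterol, at 20.7 CPM per kilobase. The regulators Insig1, Insig2 and Srebf1 followed at 18.3, 17.7 and 15.9, with the sterol isomerase Ebp at 16.4. The lowest were Idi1, the isopentenyl pyrophosphate isomerase, at 0.447 and the efflux transporter Abcg1 at 0.604, so their counts carry the widest relative error. Across the 17 libraries the highest CPM was 1.77 times the lowest for Insig2 and 1.93 times for the desaturase Sc5d, but 33.7 times for Abcg1, 16.7 times for Npc1, 13.2 times for Pmvk and 12.6 times for Fdps.

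**Figure D1:**
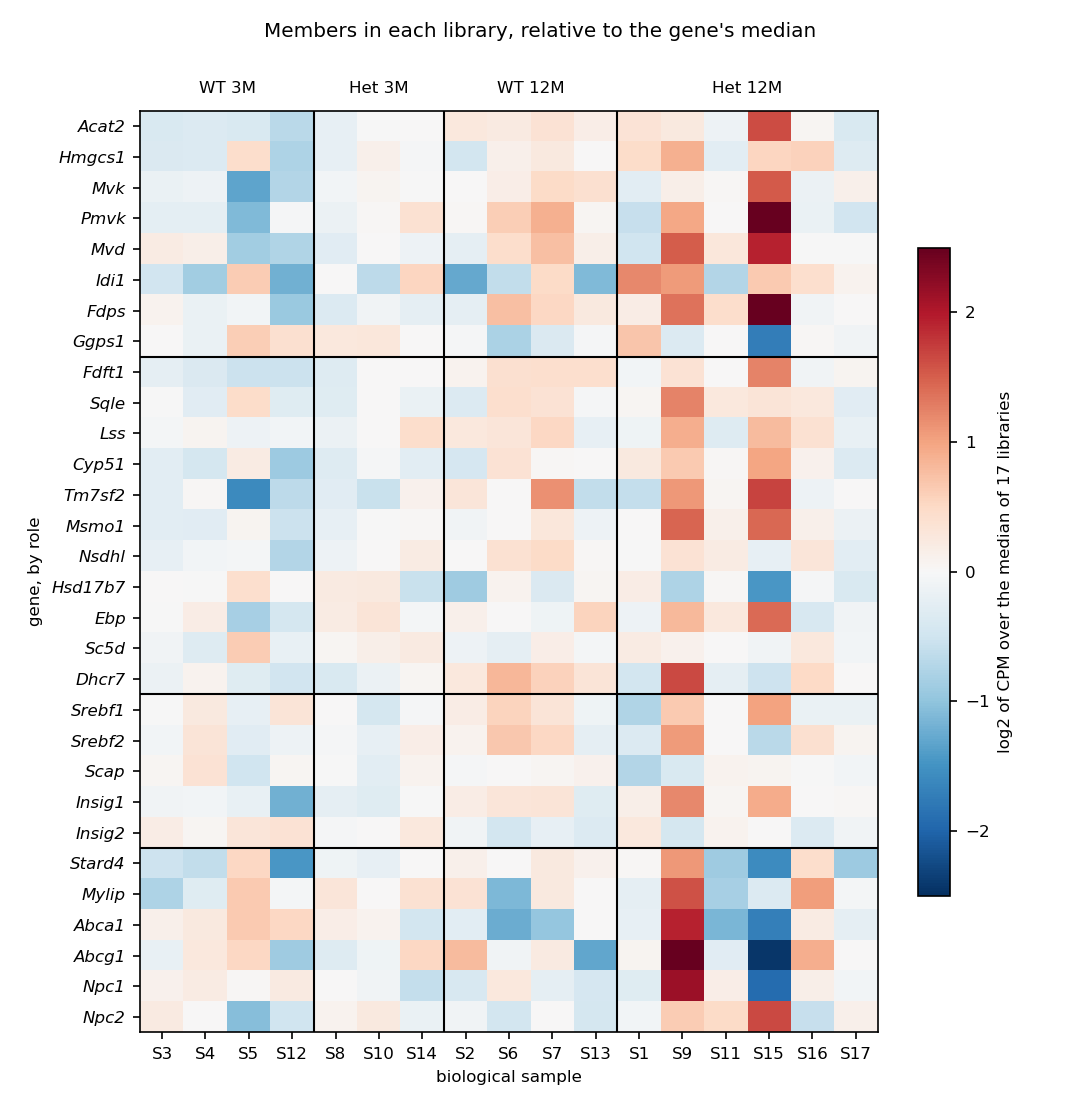
Heat map of the 30 members (rows, grouped by role with black lines: acetyl-CoA to isoprenoid pyrophosphates, squalene to cholesterol, SREBP control, and transport) in the 17 biological samples (columns, by group); colour is the log2 of CPM over the gene's median across libraries. Het 12M S9 and S15 are the most strongly coloured columns, with Abcg1 at 22.0 CPM in S9 and 0.654 CPM in S15.

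The clearest pattern of the pathway lay between the WT ages, although no gene passed the test. Of the enzymes, 6 were higher in all 4 WT 12M libraries than in all 4 WT 3M libraries: Acat2, Mvk, Pmvk, Fdft1, Nsdhl and Dhcr7. They span the pathway from the joining of acetyl-CoA units (Acat2) and the phosphorylation of mevalonate (Mvk and Pmvk) through squalene synthase (Fdft1) and the removal of methyl groups at carbon 4 (Nsdhl) to the closing reductase (Dhcr7). Insig2, an anchor that holds SCAP back, and Abca1, which exports cholesterol to lipoproteins, were lower in all 4 WT 12M libraries. Non-overlap with WT 12M higher was thus 31.6% for the 19 enzymes and 20.0% for the 30 members, beside 4.03% for all tested genes. With WT 12M lower it was 0% for the 19 enzymes and 6.67% for the 30 members, beside 4.07%. Some enzymes varied together from library to library, as given below, so these are not independent counts.

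Acat2 was at 19.6, 20.1, 19.6 and 16 CPM in WT 3M and at 30.6, 30, 32.7 and 28.6 CPM in WT 12M. The groups lay apart by more than the spread inside either, with means of 18.8 ± 1.89 and 30.5 ± 1.71 CPM (SD, n = 4 each). The fitted log2 fold change of Acat2 was 0.70 ± 0.33 (SE; edgeR p = 0.0514, adjusted 0.612). Fdft1 was at 30.1, 27.3, 24.1 and 24.2 CPM in WT 3M and at 37, 46.4, 47.0 and 46.8 CPM in WT 12M. S2 lay below the other WT 12M libraries, which sat close together, and its log2 fold change of 0.75 ± 0.26 (SE) had edgeR p = 0.0106 and adjusted p = 0.555. Squalene synthase, the product of Fdft1, commits isoprenoid units to sterols. Of Fdft1's exon bases, 18.3% are also exons of Ctsb on the opposite strand, and the library kit does not keep strand; Ctsb itself had a log2 fold change of 0.03 ± 0.76 (SE) between the WT ages.

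Mvk was at 30.5, 31.4, 13.8 and 20.7 CPM in WT 3M and at 34.3, 38.3, 48.1 and 45.1 CPM in WT 12M, a log2 fold change of 0.78 ± 0.35 (SE; edgeR p = 0.042, adjusted 0.592). Nsdhl was at 25.8, 28.3, 28.5 and 17.9 CPM in WT 3M and at 29.6, 38.8, 41.3 and 30.2 CPM in WT 12M, 0.48 ± 0.20 (SE; edgeR p = 0.033, adjusted 0.592). For both genes the groups were separated by a narrow gap, 31.4 to 34.3 CPM in Mvk and 28.5 to 29.6 CPM in Nsdhl. Pmvk was at 9.06, 9.11, 5.05 and 10.6 CPM in WT 3M and 11, 16.6, 20.0 and 11.2 in WT 12M. Dhcr7 was at 16.2, 19, 14.5 and 12.9 CPM in WT 3M and 21.4, 31.7, 26.6 and 22.5 in WT 12M. Their log2 fold changes were 0.80 ± 0.59 (SE; edgeR adjusted p = 0.702) and 0.71 ± 0.39 (SE; adjusted p = 0.64), so Pmvk differed by little more than its error.

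Insig2 was at 69.7, 63.1, 75.2 and 78.7 CPM in WT 3M and at 57.5, 44.3, 53.0 and 47.9 CPM in WT 12M, a log2 fold change of -0.50 ± 0.17 (SE; edgeR p = 0.0112, adjusted 0.557). Abca1 was at 79.7, 85.7, 115 and 104 CPM in WT 3M and at 60.8, 30.7, 36.9 and 72.6 CPM in WT 12M, a log2 fold change of -0.94 ± 0.57 (SE; edgeR p = 0.121, adjusted 0.649). Insig1, the other INSIG, went the opposite way in the fit at 0.46 ± 0.30 (SE), with overlapping groups. Ggps1, which makes geranylgeranyl pyrophosphate for protein prenylation and lies off the route to sterol, was at 30, 26.8, 45.5 and 39.2 CPM in WT 3M and 29.4, 17.3, 23.2 and 29.4 CPM in WT 12M, with a log2 fold change of -0.51 ± 0.35 (SE; edgeR p = 0.162, adjusted 0.677). Its groups overlapped.

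**Figure D2:**
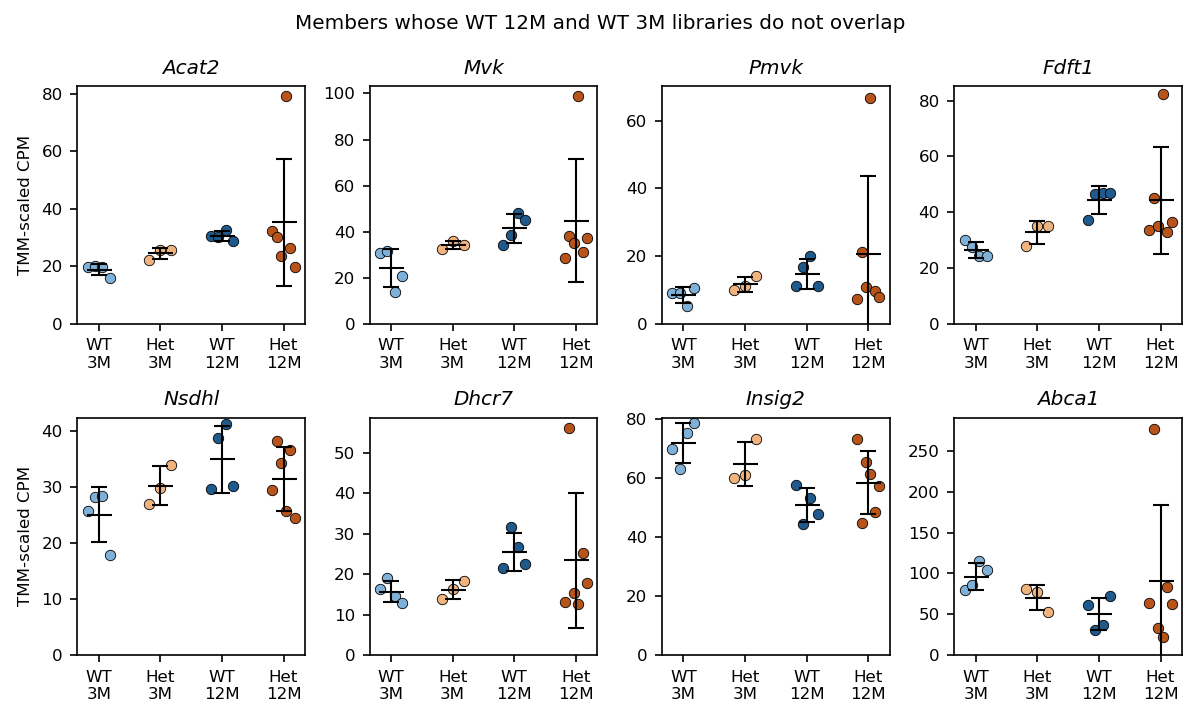
TMM-scaled CPM (y axis, from 0) of the 8 members whose WT 12M and WT 3M libraries do not overlap, by group; points are biological samples, the long tick is the mean and the bars are the SD. Acat2 lies between 16 and 20.1 in WT 3M and between 28.6 and 32.7 in WT 12M, while a single Het 12M library, S15, stands at 79.5.

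Of the 19 enzymes, 15 had a fitted value above 0 between the WT ages and the median was 0.39 on the log2 scale, beside 53.8% of all tested genes above 0 and a median of 0.04. An unadjusted edgeR p under 0.05 was reached by 3 enzymes in the higher direction (Fdft1, Nsdhl and Mvk) and by Insig2 in the lower, 4 of 30 members beside 8.22% of all tested genes. At the adjusted threshold of 0.05 edgeR called 0 members and 0% of all genes. A 2-sided exact permutation test of each of the 8 non-overlapping members gave p = 0.0286, the smallest that 4 against 4 allows, and 0.343 after adjustment over 120 such tests.

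Other fits of the WT ages gave other numbers. Without Het 12M S9 and S15, which take no part in the WT comparison, 11 members had an unadjusted p under 0.05 beside 16.5% of all tested genes: Acat2, Mvk, Pmvk, Fdps, Fdft1, Tm7sf2, Nsdhl and Dhcr7 higher, and Ggps1, Insig2 and Abca1 lower. The adjusted p of Fdft1 was then 0.0923, the smallest of the members, so 0 members were called. With the WT groups alone in the fit, 7 members had an unadjusted p under 0.05 beside 12.7% of all tested genes. With limma voom, which gives noisy libraries less weight, 5 members passed an adjusted p of 0.05: Acat2 at 0.70 (adjusted p = 0.00876), Fdft1 at 0.58 (0.0158), Insig2 at -0.38 (0.0415), Tm7sf2 at 0.88 (0.0458) and Pmvk at 0.75 (0.0495). That is 16.7% of the members beside 10.1% of all tested genes. Tm7sf2, a sterol reductase, had overlapping groups, and 12.1% of its exon bases are shared with Vps51, whose log2 fold change in edgeR was 0.46 ± 0.26 (SE).

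Marker sums of other cell types overlapped between the WT ages, though some medians differed. Osteoblast markers summed to 944 to 1800 CPM (median 1580) in WT 3M and to 1170 to 7700 CPM (median 3140) in WT 12M. Cycling markers summed to 94.4 to 235 CPM (median 125) in WT 3M and to 92.7 to 656 CPM (median 302) in WT 12M. Schwann and neural crest markers summed to 28.1 to 105 and 22.9 to 1180 CPM. WT 3M S5 gave the lowest value of 7 members and had genes with under 1500 bases of exon 0.37 log2 units below, and genes with over 6000 bases 0.33 above, the other WT 3M libraries. WT 3M S12 gave the lowest value of another 7 members, among them Acat2 and Insig1. The 4 WT 12M libraries are those whose labelled sex was contradicted by Xist and Y-linked transcripts. The part of these library features in the age difference was not tested.

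Between the Het ages, fitted values were again mostly above 0, but they rested on 2 libraries. Of the 19 enzymes 16 were above 0, with a median of 0.53 on the log2 scale beside 57.7% of all tested genes and a median of 0.07. Without S9 and S15 the enzyme median was 0.08, with 13 above 0, and without S15 alone it was 0.15. Fdps and Insig1 were the 2 members higher in all Het 12M than in all Het 3M libraries, 6.67% of members beside 0.49% of all tested genes, and 0 members were lower without overlap, beside 1.42%. EdgeR called 0 members at the adjusted threshold and 0% of all genes, and 1 member, Fdps, had an unadjusted p under 0.05 beside 3.28% of all tested genes.

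Fdps makes farnesyl pyrophosphate, the branch point to sterols and prenylated proteins. It was at 14.7, 17.7 and 16 CPM in Het 3M and at 17.7 (lowest), 23.2 (median) and 125 CPM (highest) in Het 12M, with the highest Het 3M and lowest Het 12M libraries nearly equal. Its log2 fold change was 1.40 ± 0.56 (SE; edgeR p = 0.0225, adjusted 0.946), and it was 0.67 without S15. Of its exon bases, 26.7% are shared with another annotated gene on the same strand. Insig1 was at 46.1, 43.6 and 53.7 CPM in Het 3M and at 53.9, 57.8 and 124 CPM (lowest, median and highest) in Het 12M, 0.66 ± 0.31 (SE; edgeR p = 0.0517, adjusted 0.946). In both genes the nearest libraries of the age groups differed by under 1 CPM, and without S9 and S15 the fitted values were 0.36 for Fdps and 0.23 for Insig1. The 2-sided exact permutation p was 0.0238 for each, the smallest that 3 against 6 allows, and 0.343 after adjustment.

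Msmo1, which starts the removal of the carbon 4 methyl groups, was at 62.1, 70.4 and 72.9 CPM in Het 3M and at 64.4, 77.8 and 196 CPM (lowest, median and highest) in Het 12M, 0.72 ± 0.35 (SE; edgeR p = 0.0523, adjusted 0.946). The groups overlapped, and S9 and S15 held its highest values, 196 and 192 CPM; without both the fitted value was 0.09. In the lower direction the smallest p-values belonged to Hsd17b7, a 3-keto-sterol reductase, at -0.33 ± 0.31 (SE; edgeR p = 0.31), Insig2 at -0.15 ± 0.17 (p = 0.404) and Ggps1 at -0.28 ± 0.35 (p = 0.437), each with adjusted p of 0.946 or more and overlapping groups. Hsd17b7 was at 54.6, 55.4 and 31.6 CPM in Het 3M and at 16.9, 40.6 and 52.9 CPM (lowest, median and highest) in Het 12M. Insig2 was at 59.9, 61.0 and 73.1 CPM in Het 3M and at 44.7, 59.2 and 73.3 CPM in Het 12M. Ggps1 was at 36.1, 36.5 and 29.9 CPM in Het 3M and at 9.03, 29.0 and 48.3 CPM in Het 12M, again in the order lowest, median and highest.

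The WT and Het age comparisons share no library, so their directions can be set side by side. Of the 19 enzymes, 15 (78.9%) were fitted higher at 12 months in both genotypes, beside 34.6% of all tested genes. Without Het 12M S9 and S15 the count was 11 (57.9%), beside 23.3% of tested genes. All 6 enzymes that separated the WT ages were fitted higher in Het as well, from 0.06 for Nsdhl to 0.83 for Pmvk, with Het groups that overlapped. Without S9 and S15, Pmvk turned to -0.39 and Mvk to -0.06, and the other 4 lay between 0.04 and 0.15. Abca1 was fitted at 0.36 ± 0.58 (SE) in Het against -0.94 ± 0.57 (SE) in WT; the difference between these effects was 1.30 ± 0.82 (SE; edgeR p = 0.132, adjusted 0.944). Both values rested on S9, at 277 CPM of Abca1: without it the Het value was -0.42 ± 0.37 (SE) and the difference 0.52 ± 0.52 (SE).

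**Figure D3:**
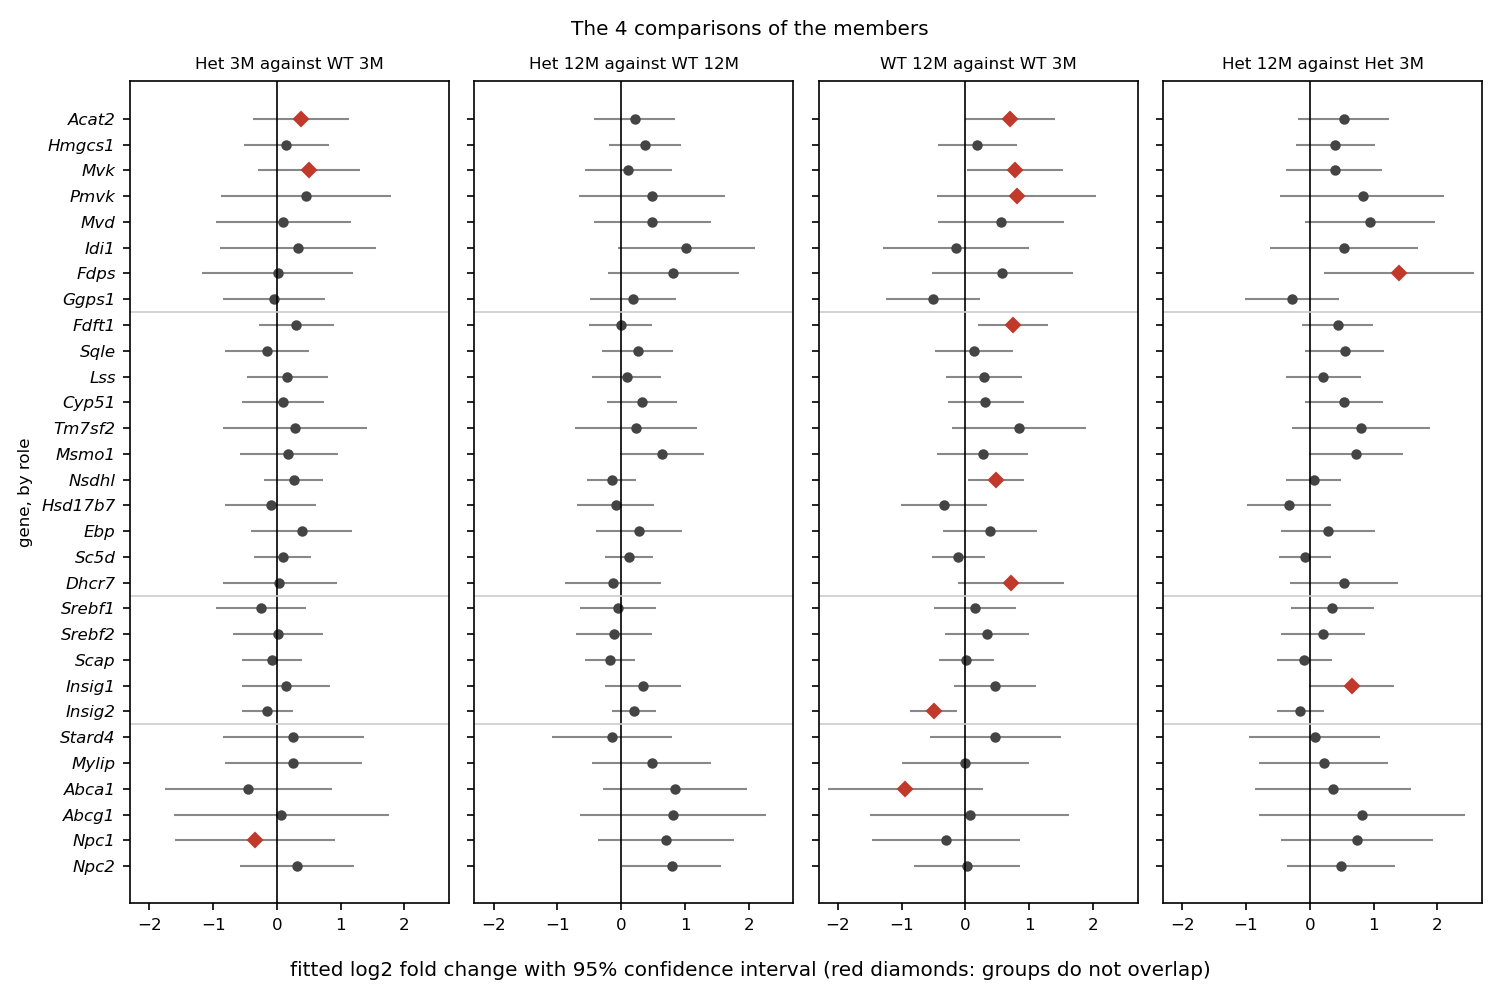
Fitted log2 fold change of each member (x axis, first group minus second) with its 95% confidence interval in the 4 comparisons; rows are genes by role and red diamonds mark groups that do not overlap. WT 12M against WT 3M holds 8 diamonds, and most intervals in every panel include 0.

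At 3 months no member passed the test between Het and WT. Of the 19 enzymes 16 were fitted higher in Het 3M, with a median of 0.16 on the log2 scale beside 47.5% of all tested genes and a median of -0.02. EdgeR called 0 members and 0% of all genes, and 0 members had an unadjusted p under 0.05 beside 1.6% of all tested genes. Acat2 and Mvk were higher in all 3 Het than in all 4 WT libraries, 6.67% of members beside 3.21% of all tested genes. Npc1, the lysosomal membrane protein that passes cholesterol out of the lysosome, was lower in all of them, 3.33% of members beside 3.57%. These 3 non-overlaps had exact permutation p = 0.0571, the smallest that 3 against 4 allows, and 0.527 after adjustment.

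Mvk was at 32.5, 36.0 and 34.2 CPM in Het 3M beside 13.8 to 31.4 in WT 3M, a log2 fold change of 0.51 ± 0.38 (SE; edgeR p = 0.199, adjusted 1.0). It was 0.32 without WT 3M S5, the library with its lowest value. Acat2 was at 22.2, 25.5 and 25.6 CPM in Het 3M beside 16 to 20.1 in WT 3M, 0.38 ± 0.36 (SE). Nsdhl at 27.0, 29.9 and 34.0 CPM and Fdft1 at 27.9, 35.0 and 35.1 CPM overlapped the WT 3M values given above, with 0.27 ± 0.22 and 0.30 ± 0.28 (SE). The Het 3M means of Acat2, Mvk and Fdft1, 24.5, 34.3 and 32.6 CPM, lay between the means of WT 3M (18.8, 24.1 and 26.4) and of WT 12M (30.5, 41.5 and 44.3). Het 3M and WT 12M are compared here with the same WT 3M libraries, so low values there raise both differences. WT 3M S5 held the lowest value of Mvk and Fdft1 among all libraries, and WT 3M S12 that of Acat2.

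In the lower direction at 3 months, Insig2 at 59.9, 61.0 and 73.1 CPM had -0.15 ± 0.19 (SE), with WT 3M at 63.1 to 78.7. Srebf1, at 83.4, 60.7 and 80.6 CPM in Het 3M and 82.6, 98.5, 71.3 and 104 in WT 3M, had -0.25 ± 0.33 (SE). Abca1, at 81.2, 77.3 and 52.6 CPM beside 79.7 to 115 in WT 3M, had -0.45 ± 0.62 (SE). Each of these groups overlapped and each edgeR adjusted p was 1.0. Npc1 was at 53.5, 50.5 and 35.2 CPM in Het 3M and at 57.3, 61.3, 54.6 and 62.2 in WT 3M, -0.34 ± 0.59 (SE; edgeR adjusted p = 1.0). The gap between its groups, 53.5 to 54.6 CPM, was small. Leaving out a library can only add non-overlaps, and without WT 3M S5 they became 7 higher (Acat2, Hmgcs1, Mvk, Msmo1, Sc5d, Stard4 and Mylip) beside 8.35% of all tested genes, and Npc1 lower beside 9.58%. Limma voom called 1 member, Mylip at 0.81 (adjusted p = 0.0308), 3.33% of members beside 8.67% of all tested genes; edgeR gave Mylip 0.26 ± 0.51 (SE).

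At 12 months the genotypes overlapped for every member. EdgeR called 0 members and 0% of all genes, and non-overlap was 0 of 30 in either direction beside 0.47% higher and 0.853% lower among all tested genes. The enzyme median was 0.24 on the log2 scale with 15 of 19 above 0, beside 55.7% of all tested genes and a median of 0.05. Its sign turned without S9 and S15, to -0.22 with 7 of 19 above 0, and Pmvk and Fdft1 were then lower in all 4 remaining Het 12M than in all 4 WT 12M libraries, 2 of 30 members beside 3.54% of all tested genes. Limma voom with all libraries gave an enzyme median of -0.00.

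Npc2 alone had an unadjusted p under 0.05, beside 8.36% of all tested genes. It was at 515, 401, 549 and 407 CPM in WT 12M and at 370, 683 and 1730 CPM (lowest, median and highest) in Het 12M, 0.79 ± 0.37 (SE; edgeR p = 0.0471, adjusted 0.591), and 0.39 without S15. Msmo1 was at 67.4, 71.3, 87.0 and 65.4 CPM in WT 12M and at 64.4, 77.8 and 196 in Het 12M, 0.64 ± 0.31 (SE; edgeR p = 0.0575, adjusted 0.615). It was 0.40 without S15 and -0.00 without S9, S15 and WT 12M S6. Idi1 was at 0.632, 1.01, 2.15 and 0.713 CPM in WT 12M and at 0.93, 2.24 and 3.56 in Het 12M, 1.02 ± 0.51 (SE; edgeR p = 0.06, adjusted 0.623). All 3 had groups that overlapped, and Idi1 is read from few counts. In the lower direction, Scap was at 92.1, 94.5, 98.0 and 102 CPM in WT 12M and at 56.9, 91.9 and 101 in Het 12M, -0.18 ± 0.19 (SE). Nsdhl was at 24.5, 31.9 and 38.2 CPM in Het 12M beside 29.6 to 41.3 in WT 12M, -0.15 ± 0.19 (SE). Srebf2, at 89.7, 135, 120 and 71.9 CPM in WT 12M and 52.7, 86.5 and 176 in Het 12M, had -0.11 ± 0.28 (SE), and 0.03 without WT 12M S6.

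The effect of genotype was not shown to differ between the ages for any member. In the interaction test edgeR called 0 members and 0% of all genes, and 0 members had an unadjusted p under 0.05 beside 5.76% of all tested genes. The enzyme median of the interaction was 0.03 on the log2 scale, beside 0.08 for all tested genes, and -0.44 without S9 and S15. Of the 19 enzymes, 13 (68.4%) were fitted higher in Het than in WT at both ages, beside 23.8% of all tested genes, and 5 (26.3%) without S9 and S15, beside 16.2%.

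Both Het 12M S9 and S15 stood out. These libraries held the extremes of most members, in different roles. S9 was the highest of 17 libraries for 12 members and the lowest for 0. Its transport genes lay farthest from the other Het 12M libraries, with a median log2 difference of 2.05 and 6 of 6 above, beside 0.61 for the enzymes and 0.07 for all tested genes. Abca1 was at 277 CPM in S9 and at 22.2 to 83.5 in the other Het 12M libraries, Npc1 at 237 beside 14.1 to 60.0, Abcg1 at 22.0 beside 0.654 to 6.67, and Mylip at 81.6 beside 15.3 to 56.2. Efflux transporters are prominent in macrophages, and S9 is the library whose macrophage markers summed to 42000 CPM; the part of those cells in the member values was not tested.

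S15 was the highest library for 11 members, 9 of them enzymes, and the lowest for 8. Fdps at 125 CPM beside 17.7 to 48.1, Pmvk at 66.8 beside 7.26 to 21.1 and Npc2 at 1730 beside 370 to 850 in the other Het 12M libraries were high. Npc1 at 14.1, Abca1 at 22.2, Abcg1 at 0.654 and Ggps1 at 9.03 CPM were low, below every other library. The 8 early enzymes had a median log2 difference of 1.55 from the other Het 12M libraries and the 6 transport genes of -1.54. Over all tested genes, those with under 1500 bases of exon were 1.09 log2 units higher in S15 and those with over 6000 bases 0.69 lower. Of the members named here as high, Pmvk has 1713 bases of exon, Fdps 4208 and Npc2 5438. Of those named as low, Ggps1 has 4721, Abcg1 7298, Abca1 10363 and Npc1 11317. The part of length in the member values was not tested.

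**Figure D4:**
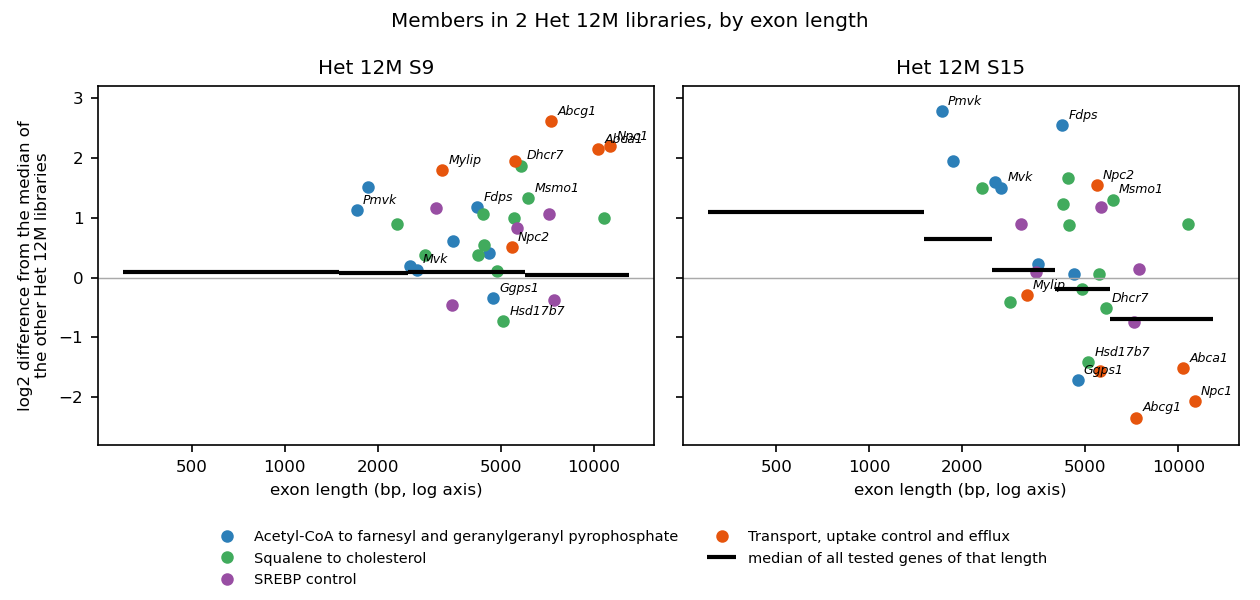
Log2 difference of each member from the median of the other Het 12M libraries (y axis) against its exon length (x axis, log scale) in Het 12M S9 (left) and S15 (right); point colour is the role and black bars are the medians of all tested genes in 5 length classes. In S15 the bars fall from 1.09 to -0.69 with length, and in S9 they stay between 0.04 and 0.10.

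Within groups, some enzymes varied together from library to library. Pearson's r, after subtraction of each group's mean log2 CPM, is given here only as a description. Both gene values of a point come from the same library and share its depth and composition. Without S9 and S15 (15 libraries), the members most like Hmgcs1 were Stard4, a cytosolic sterol carrier (r = 0.88, Spearman's rho = 0.72), Cyp51 (0.85 and 0.85), Sc5d (0.78 and 0.79), Sqle (0.76 and 0.71), Idi1 (0.74 and 0.71) and Msmo1 (0.73 and 0.66). Mvk, Pmvk and Mvd, the steps from mevalonate to isopentenyl pyrophosphate, lay at -0.38, -0.25 and -0.07, so not all enzymes varied together in these libraries. Mvk, Pmvk and Mvd have 2675, 1713 and 1859 bases of exon, beside 4594 for Hmgcs1 and 4415 for Cyp51. The 15 libraries include WT 3M S5 and Het 12M S16, where genes with under 1500 bases lay at -0.37 and -0.46 log2 units from their groups. The part of length in these r values was not tested. Over the 171 pairs of enzymes the median r was 0.22, and 48 pairs were above 0.5. With S9 and S15 included it was 0.35 (17 libraries).

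The wider sterol and lipid network, 52 further genes in 5 lists, had 0 genes past the edgeR threshold in any comparison. These were 9 genes of SREBP cleavage and sterol-regulated degradation, 11 of fatty acid synthesis, 5 of the LXR system, 10 of the mevalonate branches and 17 of sterol storage, oxidation and carriage. Between the WT ages 2 had an unadjusted p under 0.05 in each direction, beside 8.22% of all tested genes in either, and the list medians were 0.01, 0.13, 0.57, 0.10 and 0.03 on the log2 scale in the order above, beside 0.04 for all tested genes. The smallest p belonged to Vldlr, a lipoprotein receptor that MYLIP targets, at 66.7, 43.9, 110 and 88.6 CPM in WT 3M and 22.4, 20.7, 30.3 and 14.2 in WT 12M, -1.82 ± 0.45 (SE; edgeR p = 0.000869, adjusted 0.407). Cyp7b1, an oxysterol hydroxylase, was at 3.28, 4.53, 5.1 and 1.42 CPM in WT 3M and 15.2, 9.94, 9.23 and 14.6 in WT 12M, 1.77 ± 0.55 (SE; p = 0.00485, adjusted 0.552). Both genes had WT groups that did not overlap. Of the 52 genes, 3.85% were higher in WT 12M without overlap, beside 4.03% of all tested genes. Lower without overlap were 5.77%, beside 4.07% of all tested genes.

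Between Het 12M and WT 12M, 2 of the 52 had an unadjusted p under 0.05 in each direction, beside 8.36% of all tested genes in either. Abcg4, a sterol transporter related to Abcg1, was at 9.99, 2.69, 6.59 and 3.85 CPM in WT 12M and at 0.476 to 2.4 in Het 12M, -2.13 ± 0.58 (SE; edgeR p = 0.00195, adjusted 0.262), with no overlap. Of the 52 genes, 1.92% were lower in Het 12M without overlap, beside 0.853% of all tested genes. Higher without overlap were 0, beside 0.47%. Rabggtb, a subunit of the enzyme that prenylates Rab proteins, ranged from 38.1 to 93.7 CPM in Het 12M beside 25.7 to 48.1 CPM in the WT libraries of that age, with overlap, 0.65 ± 0.23 (SE; adjusted p = 0.425). At 3 months Me1, the malic enzyme that supplies NADPH for lipid synthesis, was at 68.5, 68.1 and 69.0 CPM in Het 3M and at 95.4, 83.0, 161 and 139 in WT 3M, -0.80 ± 0.31 (SE; edgeR p = 0.0208, adjusted 1.0). Lrp1, an endocytic lipoprotein receptor, was at 1440, 786 and 2240 CPM in Het 3M and 2340 to 2960 in WT 3M, -0.78 ± 0.35 (SE; adjusted p = 1.0). Between the Het ages the smallest p belonged to Abcg4 at -1.31 ± 0.62 (SE; p = 0.051) and Gramd1a, a sterol carrier of membrane contact sites, at 0.62 ± 0.30 (SE; p = 0.0561), each with edgeR adjusted p = 0.946. In the interaction Me1 had 1.17 ± 0.41 (SE; adjusted p = 0.698) and Abcg4 -2.18 ± 0.89 (SE; adjusted p = 0.775).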

How the data were processed

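Gene counts were deposited as 1 table of raw counts with 27179 Entrez gene rows and 68 columns, 4 technical replicates for each of 17 biological samples. The authors mapped reads to mm10 and counted them with Subread and featureCounts, per the submitters' processing notes; versions, gene annotation and the handling of reads shared by several genes are not given in the sources used here. The library kit, TruSeq RNA v2 per the labels, does not keep strand, and 11 members share exon bases with another annotated gene. Whether such reads were dropped or shared is unknown.

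Technical replicates were summed. Symbols and positions were taken by Entrez ID from RefSeq (GRCm38.p6), and promoters from RefSeq of the same build. Exon lengths came from GENCODE M21 on GRCm38, the build also named mm10. They are the merged length of all annotated exons of a gene, which can exceed that of any single transcript. Rows without a symbol held 0.573% of counts and stayed in the fit by ID. Genes were tested with edgeR 4.0.16 (R 4.3.3): filterByExpr on the 4 groups, TMM scaling (factors 0.899 to 1.05), 1 quasi-likelihood fit of the 4 groups over all 17 samples, and 2-sided F-tests adjusted by Benjamini and Hochberg over 14897 genes, with a threshold of 0.05. The common biological coefficient of variation was 0.512. Labelled sex was no term of the fit, since it went against sex-linked transcripts in 4 libraries. SE is the fold change divided by the root of F, and intervals are at 95%. Log2 CPM with a pseudocount of 0.1 entered 2-sided exact permutation tests, adjusted over 120 tests (30 members in 4 comparisons). Scripts were tested on simulated counts, where recovery of set fold changes was required only at a spread lower than that of these data. Recovery at the estimated spread is not reported here, so a lack of calls does not show a lack of differences.

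The named genes were set by rule. In each comparison of groups, these were the 3 members of smallest p among those higher and among those lower. Their values are given by sample, but for Het 12M as lowest, median and highest. Of the further lists, genes past the threshold were named, or else the 2 with the smallest p. Members whose groups do not overlap are named as well. Members and lists were chosen with earlier results of these data known. Alternatives were DESeq2 1.42.0, voom of limma 3.58.1 with quality weights per sample, scaling by RLE or by library totals alone, dropping the filter or requiring 1 CPM in 3 samples, sex terms, the 2 groups alone, technical replicate 1 alone, and leaving out libraries; leaving out Het 12M S9 and S15 together was chosen after seeing the data.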

Additional observations from a re-analysis of the deposited data

Results flagged for a closer look

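In 15 of 90 pairs of a member and a group of 4 to 6 libraries, the highest or lowest library lay apart from the rest by the Dixon criterion at 95%. The criterion marks about 1 in 20 when values are independent and normal, and the members of a library are not independent. The share over all tested genes is not given here, so the count cannot be called particular to these members. Of the 15, 6 were in Het 12M S15, 5 in Het 12M S9 and 4 elsewhere.

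In Het 12M, S15 was high for Acat2 at 79.5 CPM (next library 32.3), Mvk at 99.0 (38.1), Pmvk at 66.8 (21.1), Fdps at 125 (48.1), Fdft1 at 82.3 (45.1) and Npc2 at 1730 (850). S9 was high for Sqle at 130 CPM (next 68.6), Dhcr7 at 56.2 (25.2), Abca1 at 277 (83.5), Abcg1 at 22.0 (6.67) and Npc1 at 237 (60.0). Elsewhere, WT 3M S12 was low for Acat2 at 16 CPM (next 19.6) and for Insig1 at 23.6 (47.6), WT 12M S2 was low for Fdft1 at 37 (46.4), and WT 3M S5 was high for Hsd17b7 at 62.7 (46.9).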

How the results depend on the processing

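No member passed the edgeR threshold under any scaling, filter, sex term or left-out library that was tried, nor with DESeq2. Limma voom called 1 member between Het 3M and WT 3M and 5 between the WT ages, among them Fdft1 at 0.58 (adjusted p = 0.0158) and Insig2 at -0.38 (0.0415). Over all genes voom called 1292 (Het 3M against WT 3M), 171 (Het 12M against WT 12M), 1508 (WT ages), 1 (Het ages) and 939 (interaction), and DESeq2 called 106 (Het 12M against WT 12M), 53 (WT ages), 1 (Het ages) and 35 (interaction), where edgeR called 0. Without Het 12M S9, S15 and WT 12M S6, edgeR called 2 genes between the WT ages, and without S9 and S15 it called 5. Leaving out each library in turn gave 0 to 2 genes between Het 12M and WT 12M. The median log2 fold change of the enzymes moved from 0.24 to -0.11 without those 3 libraries and -0.22 without S9 and S15 (Het 12M against WT 12M), from 0.53 to 0.07 and 0.08 (Het ages), and from 0.03 to -0.39 and -0.44 (interaction). For the Het ages it was 0.17 with voom and 0.15 to 0.57 leaving out each library in turn, lowest without S15. Among the 24 named pairs of a member and a comparison, 3 changed sign: Msmo1 to -0.00 without the 3 libraries and Srebf2 to 0.03 without WT 12M S6 (range -0.37 to 0.03), both between Het 12M and WT 12M, and Ggps1 to 0.00 between the Het ages without S9 and S15. Among all 30 members, more changed sign without S9 and S15: 11 between Het 12M and WT 12M (10 of them enzymes), 10 between the Het ages (5 enzymes) and 9 in the interaction (5 enzymes). The cause was not tested. Between the WT ages the enzyme median stayed between 0.31 and 0.55 when single libraries were left out. No paired analysis was possible because equal replicate numbers in the labels mark technical replicates of 1 sample and each S number occurs in 1 group only. Depth limits Idi1 and Abcg1 most.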
